A study of Mus musculus with 6 samples.

Results

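Genes of the lipid droplet and of fat accumulation in the liver were followed in livers of mice on an alcohol diet. They comprised the droplet coat protein Plin2 (named Adfp on the array), the droplet proteins Cidea, Cideb and Cidec, the lipases Pnpla2, Pnpla3 and Lpl, the fatty acid transporter Cd36, and the fatty acid binding proteins Fabp1 and Fabp4. Every probe carrying one of these 10 gene names was taken, which gave 15 of the 41174 probes of the array and 10 of its 27962 gene names. Fabp4 has 3 of these probes, Cd36, Lpl and Pnpla2 have 2 each, and the other genes have 1, so that probes of 1 gene are not independent of each other.

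The mice were males of the 129/Sv strain, aged 6 to 8 weeks when treatment began, and all were first kept on the control liquid diet. The alcohol arm then had free access to a Lieber-DeCarli liquid diet with 4% ethanol, and the control arm received a diet of equal calories with maltose dextran in place of ethanol. After 1, 2 and 4 months, liver RNA of 6 mice per arm was combined into 1 pool, which makes 6 pools. The pools of a month were compared on 2 two-color arrays, the first with alcohol RNA in the red dye Cy5 and the second with the dyes exchanged (alcohol in Cy3).

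Each month therefore holds 1 alcohol pool and 1 control pool, and the 2 arrays of a month are technical repeats of the same RNA. No test of alcohol exists within a month. The spread between the 2 arrays (SD) covers dye and hybridization error but not the differences between mice. The 1-month arrays were on 1 slide and the arrays of 2 and 4 months on another, so that slide and early against later treatment cannot be told apart. All 8 hepatocyte markers checked (among them Alb, Ttr, Apob and Cps1) were well above background in all pools. So were all 15 probes described here, none of which was saturated, and 27898 of the 41174 probes of the array. The adipocyte, skeletal muscle and pancreas acinar markers examined below cleared background as well, so that clearing it does not show expression in hepatocytes.

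In the liver, fatty acids enter cells through transporters such as Cd36, are carried in the cytosol by binding proteins such as Fabp1, and are esterified to triglyceride. Triglyceride is stored in droplets that are coated by perilipins, of which Plin2 is the main one in hepatocytes, and the CIDE proteins promote the fusion and growth of droplets or the loading of secreted lipoproteins. Stored fat is released by lipases, the first step being carried out by Pnpla2. Several of these genes are known targets of the nuclear receptors PPARalpha and PPARgamma, which bind direct repeats of the hexamer AGGTCA.

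The arrays measured RNA and not promoters, and the start regions are given here as the annotated starting points of the transcripts discussed. RefSeq start regions (build GRCm38.p6, 250 bases before to 50 bases after the start) were available for 7 of the 10 genes, with 8 windows in all. The hexamer AGGTCA, searched on both strands without allowing any mismatch, occurred in 3 of these windows, those of Cd36, Fabp1 and Plin2, and in 16.3% of all 32851 windows of that length. These 3 windows are printed 5′ to 3′ on the strand of the gene with the matches in capitals. They read TGACCT because each match lies on the opposite strand. The windows lie at chr5:17835847-17836146 on the minus strand for Cd36, chr6:71199629-71199928 on the plus strand for Fabp1, and chr4:86670010-86670309 on the minus strand for Plin2.
Cd36: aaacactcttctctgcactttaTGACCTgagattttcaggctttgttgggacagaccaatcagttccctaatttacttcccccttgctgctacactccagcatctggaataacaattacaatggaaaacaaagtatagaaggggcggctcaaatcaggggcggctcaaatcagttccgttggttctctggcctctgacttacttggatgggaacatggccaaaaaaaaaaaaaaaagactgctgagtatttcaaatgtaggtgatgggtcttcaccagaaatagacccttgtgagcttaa
Fabp1: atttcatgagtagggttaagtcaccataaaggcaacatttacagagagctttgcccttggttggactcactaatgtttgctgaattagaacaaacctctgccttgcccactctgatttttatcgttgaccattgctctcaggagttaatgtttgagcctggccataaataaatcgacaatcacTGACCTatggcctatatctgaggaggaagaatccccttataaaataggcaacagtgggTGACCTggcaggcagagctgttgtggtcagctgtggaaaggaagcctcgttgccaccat
Plin2: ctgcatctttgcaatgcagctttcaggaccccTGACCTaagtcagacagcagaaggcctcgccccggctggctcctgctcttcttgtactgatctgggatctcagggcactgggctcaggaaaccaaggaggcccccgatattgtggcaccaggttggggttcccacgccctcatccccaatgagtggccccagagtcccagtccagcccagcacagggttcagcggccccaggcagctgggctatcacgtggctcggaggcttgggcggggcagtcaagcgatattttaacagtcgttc
The match begins at base -228 from the start in Cd36 and at base -218 in Plin2. Fabp1 holds 2 matches, beginning at bases -67 and -9. A match describes the letters of the window and is not a measured binding site.

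Cd36 had the largest mean difference between alcohol and control of the 10 genes, and it was seen at 1 month. For each probe, the ratio of alcohol over control was taken on the log2 scale from the 2 arrays of a month, with the Cy5 array named first. The Cd36 probe A_51_P375138 gave 1.35 and 1.37 at 1 month, and the Cd36 probe A_51_P375146 gave 0.98 and 0.94. Both probes were thus higher with alcohol on both arrays, by 2.56-fold and 1.94-fold in the mean, and the gap between the dye-swapped arrays was small beside the difference itself (SD of 0.01 and 0.03 on the log2 scale).

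At 2 months the probe A_51_P375138 gave -0.07 and 0.58, with a mean of 0.25 ± 0.46 (SD, n = 2 arrays). At 4 months it gave 0.06 and 0.63, with a mean of 0.34 ± 0.40. The second Cd36 probe gave -0.02 and 0.66 at 2 months, followed by -0.18 and 0.90 at 4 months. Both means remained above 0 at both later times, but the arrays of a pair were farther apart than the mean was from 0. The higher value came in each case from the array with alcohol in Cy3.

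The level of Cd36 in each pool was described as the log2 of its signal relative to the 75th percentile of the same channel, averaged over the 2 dyes, and compared only within a probe. At 1 month the probe A_51_P375138 stood at -0.33 in the control pool and 1.02 in the alcohol pool. At 2 months it stood at -0.99 in the control pool and -0.75 in the alcohol pool, and at 4 months at -0.63 and -0.29. The 1-month alcohol pool was the highest of the 6, above the single-array values of every other pool. In the other probe the alcohol pool of 1 month was likewise highest, at 0.25 against -0.71 to -1.12 in the 3 control pools and -0.81 and -0.60 in the later alcohol pools.

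**Figure D1:**
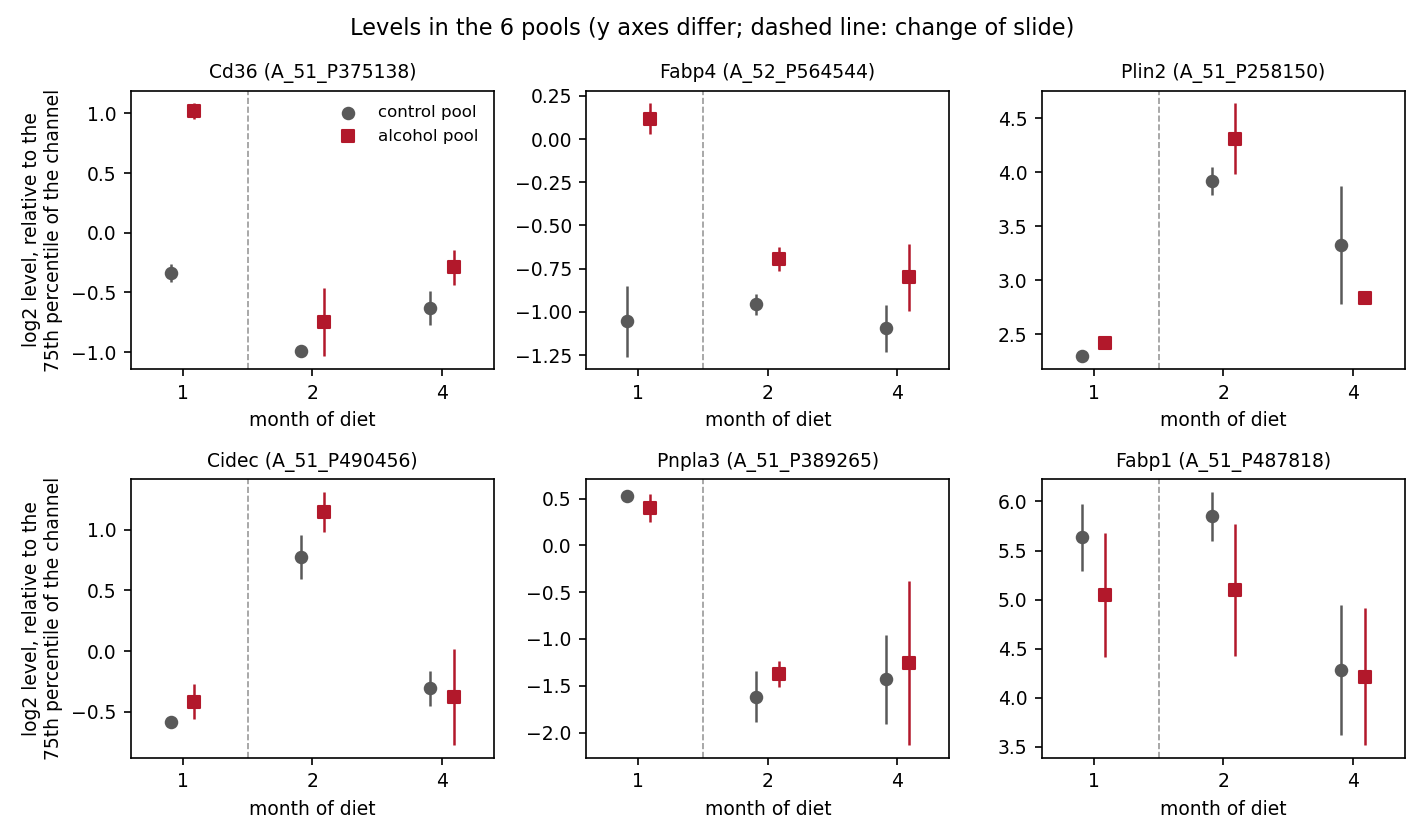
Level of 6 probes in the 6 pools, as log2 signal relative to the 75th percentile of the channel, against the month of diet. Points are means of the 2 arrays of a pool, lines run from the lower to the higher array, and the dashed line marks the change of slide between 1 month and the later times. The 1-month alcohol pool lies above all other pools for the Cd36 probe (1.02) and for this probe of Fabp4 (0.12). It does not for the brightest Fabp4 probe, at 3.17 against 4.07 to 4.35 in the later pools. Quantile normalization of average intensities narrows this gap, to 15.72 against 15.96 to 16.36. For Plin2, Cidec and Pnpla3 the months differ more than the diets do.

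Fabp4, a fatty acid binding protein best known from adipocytes, macrophages and capillary endothelium, was the other gene with a large difference at 1 month, but its 3 probes did not give the same size. The probe A_52_P564544 gave 1.06 and 1.29, the probe A_51_P336833 gave 0.75 and 0.75, and the probe A_51_P336830, which had the strongest signal of the 3, gave 0.19 and 0.14. All 3 were higher with alcohol on both arrays, by 2.25-fold, 1.68-fold and 1.12-fold in the mean.

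At 2 months the same 3 Fabp4 probes had means of 0.27 ± 0.01, 0.34 ± 0.17 and 0.26 ± 0.20 (SD, n = 2 arrays), and here they did not differ beyond the spread of their arrays. At 4 months they gave 0.30 ± 0.08, 0.37 ± 0.28 and 0.04 ± 0.07. Of the 6 arrays, A_52_P564544 and A_51_P336833 were above 0 on all, while A_51_P336830 was at -0.01 on the Cy5 array of 4 months. The part of the transcript that each probe reads is not given in the sources used here, and no reason for the disagreement of the probes was tested. In the pools, the level of A_52_P564544 was -1.05, -0.96 and -1.09 in the controls of 1, 2 and 4 months, against 0.12, -0.69 and -0.80 in the alcohol pools. The level of the brightest probe A_51_P336830 was 3.01, 4.07 and 4.32 in the controls and 3.17, 4.32 and 4.35 in the alcohol pools. Its 1-month alcohol pool was thus below all 4 later pools, which lie on the other slide. After quantile normalization of average intensities the gap was narrower, at 15.72 against 15.96 to 16.36. The third probe stood at -1.20, -0.90 and -0.93 in the controls and at -0.45, -0.57 and -0.56 with alcohol. After quantile normalization its alcohol pools stood at 11.83, 11.98 and 12.00. For this probe the order of the alcohol pools across slides thus depends on the scaling.

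Cd36 and Fabp4 are also expressed by endothelial cells and macrophages, and markers of these cells were examined at the same time point. All 8 endothelial markers (Pecam1, Cdh5, Kdr, Stab2, Lyve1, Clec4g, Tek and Eng) were above 0 on both 1-month arrays with their brightest probes. The median difference was 0.36 on the log2 scale. Over all probes, the arrays of 1 month opposed each other in sign for 48.8%. Of the dimmer probes, Kdr A_52_P478193 (well above background in 1 of 12 channels) gave -0.43 and -0.01. Clec4g A_52_P265861 gave 0.09 and -0.004, and the rest were above 0 on both. The second Lyve1 probe had a mean of 0.40 beside 0.95. The summed level of the 8, in multiples of the 75th percentile, ran from 5.95 to 6.49 in the control pool and from 7.62 to 7.88 in the alcohol pool, without overlap. At 2 months none of the 8 was above 0 on both arrays, and at 4 months 2 were.

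Of the 8 macrophage markers, 5 were above 0 on both arrays of 1 month and none was below on both. Their summed level was 27.1 to 30.6 in the control pool and 31.0 in the alcohol pool on either array, and Adgre1, the antigen that defines many tissue macrophages, gave 0.71 and 1.76 with its brighter probe but 0.41 and 0.22 with the other. The brighter Adgre1 probe was called as raised at 1 month (mean 1.23) by the same 2-fold rule as Cd36 and Fabp4, the 1 call among the 8 macrophage markers. The summed level of the 6 stellate cell markers was 9.06 to 9.11 in the control pool of 1 month and 10.1 in the alcohol pool, although the median of their single differences was 0.00, with 2 above and 2 below 0 on both arrays.

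The adipocyte markers (Adipoq, Lep, Retn, Cfd and Ucp1) did not separate the pools of 1 month. Their summed level was 2.27 to 2.29 in the control pool and 2.22 to 2.35 in the alcohol pool, and 1 of the 5 was above 0 on both arrays. Adiponectin (Adipoq) itself gave -0.05 and -0.28. No marker of these lists was below the background limit in any pool. The part of endothelial, macrophage and stellate cells in the Cd36 and Fabp4 differences was not tested, and in whole-liver RNA a change in the number of cells of a type and a change in RNA per cell cannot be told apart.

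**Figure D2:**
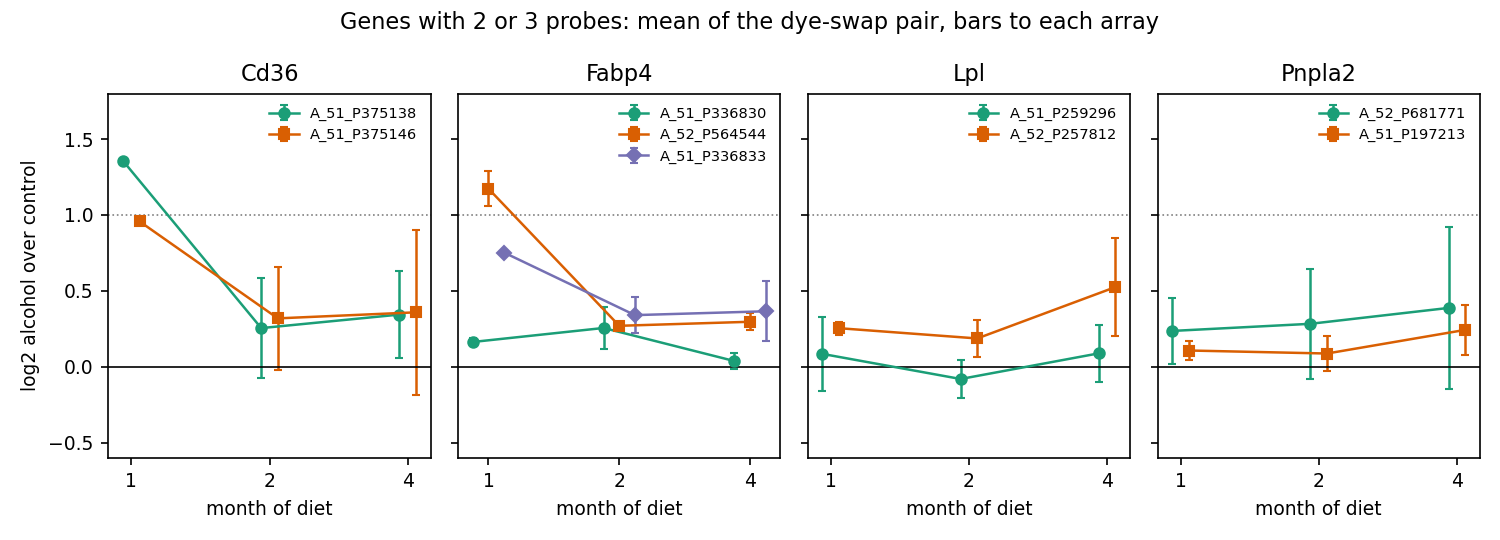
Log2 alcohol over control for the 4 genes with 2 or 3 probes, against the month of diet. Points are means of the dye-swap pair, bars reach to each array, and the dotted line marks 2-fold. Both Cd36 probes and 2 of the 3 Fabp4 probes were highest at 1 month, while the Fabp4 probe A_51_P336830 stayed between 0.04 and 0.26.

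Plin2, which coats hepatocyte droplets and is protected from degradation when fat is stored, differed little at 1 month and had no settled direction later. At 1 month the arrays gave 0.15 and 0.09, a mean of 0.12 ± 0.04 (SD, n = 2 arrays), and at 2 months -0.05 and 0.85, a mean of 0.40 ± 0.64. At 4 months they gave -1.06 and 0.08, a mean of -0.49 ± 0.81. At the later times the 2 arrays of the same RNA thus opposed each other in sign, and neither mean exceeded their SD.

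The level of Plin2 varied more between months than between diets. Between 2 and 4 months, which share a slide, it fell from 4.31 to 2.84 in the alcohol pools, a difference of -1.48, and both dyes gave it (-1.78 and -1.17). In the control pools it went from 3.92 to 3.33, a difference of -0.59 with a wide gap between the dyes (-1.01 and -0.17).

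Among the CIDE genes, none was called. Cidea, better known from brown fat, gave 0.34 and -0.14 at 1 month, 0.47 and -0.14 at 2 months, and then 0.14 and -0.04 at 4 months, so that the sign followed the dye at every time. Cideb, the CIDE protein that hepatocytes normally express and that takes part in lipoprotein lipidation, had means of -0.03 ± 0.21, -0.22 ± 0.44 and -0.21 ± 0.05 (SD, n = 2 arrays), and only at 4 months did both arrays lie below 0 (-0.24 and -0.17).

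Cidec, also called Fsp27, which is induced in fatty liver and enlarges droplets, was higher with alcohol on both arrays of 1 month (0.30 and 0.04) and of 2 months (0.73 and 0.02), with means of 0.17 ± 0.19 and 0.38 ± 0.50 (SD, n = 2 arrays). At 4 months the arrays gave 0.46 and -0.60, on either side of 0. The levels of Cidec moved far more with the month: 0.78 in the control pool and 1.15 in the alcohol pool at 2 months, and -0.31 and -0.38 at 4 months. Its level was thus lower at 4 than at 2 months with differences of -1.08 in the controls and -1.53 with alcohol on the log2 scale, within the same slide and on both dyes. After quantile normalization these differences were -0.95 and -1.42.

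Of the lipases, Pnpla2 (adipose triglyceride lipase) was above 0 in the mean at all months with both probes. The probe A_51_P197213 started at 0.17 and 0.05 with 1 month of diet, followed by 0.20 and -0.03 with 2 months and 0.41 and 0.08 with 4 months. The probe A_52_P681771 gave 0.02 and 0.45, -0.08 and 0.65, and -0.15 and 0.92 at these times. The probes had opposite dye patterns, the first being higher with alcohol in Cy5 and the second with alcohol in Cy3, and their means ranged from 0.09 to 0.24 and from 0.24 to 0.39.

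Pnpla3, a droplet lipase whose human variant is linked to fatty liver and whose RNA follows feeding and insulin, gave -0.32 and 0.07 at 1 month, next 0.12 and 0.38 at 2 months, with -0.22 and 0.58 at 4 months. Only at 2 months did both arrays have the same sign, with a mean of 0.25 ± 0.19 (SD, n = 2 arrays). The levels of Pnpla3 were 0.53 in the control and 0.40 in the alcohol pool of 1 month, and lay between -1.62 and -1.26 in the 4 later pools. This gap coincides with the change of slide, over which the median of all probes moved by -0.49 in the controls and -0.51 with alcohol on this scale, and by -0.03 and -0.04 after quantile normalization of average intensities. The Pnpla3 difference between 1 and 2 months was -2.15 and -1.78 on the first scale and -2.34 and -1.99 on the other, and slide and month cannot be told apart.

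Lpl, the lipoprotein lipase that releases fatty acids from circulating triglyceride and is normally low in adult liver, was read by 2 probes of very different brightness. The bright probe A_51_P259296 gave 0.33 and -0.16 on the 1-month pair, 0.05 and -0.21 on the 2-month pair and 0.28 and -0.10 on the 4-month pair, again with the sign of the dye. The dim probe A_52_P257812, whose processed signals lay between 76.4 and 212.5 units, was above 0 on all 6 arrays, with 0.30 and 0.21, 0.07 and 0.31, and 0.20 and 0.85. Its means were 0.25 ± 0.06, 0.19 ± 0.17 and 0.52 ± 0.46 (SD, n = 2 arrays), beside 0.08, -0.08 and 0.09 for the bright probe. Lpl RNA is also made by adipose tissue and muscle. At 4 months 3 of the 5 adipocyte markers and 1 of the 5 skeletal muscle markers were above 0 on both arrays, while Adipoq was below 0 on both (-0.09 and -0.17), and the summed adipocyte level was 1.61 to 2.08 in the control pool and 1.51 to 2.08 in the alcohol pool. All 7 pancreas acinar markers were above 0 on both arrays at that time, with a summed level of 17.9 to 19.1 in the control pool and 23.2 to 24.0 in the alcohol pool. The part of these cells in the Lpl values was not tested.

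Fabp1, the liver fatty acid binding protein and one of the most abundant cytosolic proteins of the hepatocyte, had the widest split between dyes. Its arrays gave 0.39 and -1.56 on the 1-month pair, 0.18 and -1.68 on the 2-month pair and 1.29 and -1.42 on the 4-month pair. The means were -0.58 ± 1.38, -0.75 ± 1.31 and -0.07 ± 1.92 (SD, n = 2 arrays), all smaller than their SD. With alcohol in Cy5 Fabp1 would be read as higher and with alcohol in Cy3 as lower, at every month.

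The deviation of each Fabp1 array from the mean of its pair was 0.97, 0.93 and 1.36 at 1, 2 and 4 months, a size reached by 0.0559%, 1.30% and 0.206% of all probes. Its processed signals lay between 22164 and 91570 units. Of the 8 hepatocyte markers, Apoa1 and Ahsg, which encode abundant plasma proteins, split by dye in the same way at all 3 months (0.26 and -1.47 for Apoa1 and 1.23 and -0.58 for Ahsg at 1 month). Cps1 split in the opposite way at all 3 months (-0.09 and 0.02, -0.33 and 0.12, and -0.47 and 0.44). Alb, Ttr, Apob, Tat and Hpx did not split as Fabp1 did at every month. Apoa1 and Ahsg were singled out after their values were seen. The source of the split was not tested. The level of Fabp1 was lower at 4 than at 2 months in the control pools, with a difference of -1.56 on the log2 scale, or -0.88 after quantile normalization, so that this difference exceeds 2-fold under the first scaling but not under the other. In the alcohol pools the same difference was smaller, at -0.88, or -0.24 after quantile normalization.

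**Figure D3:**
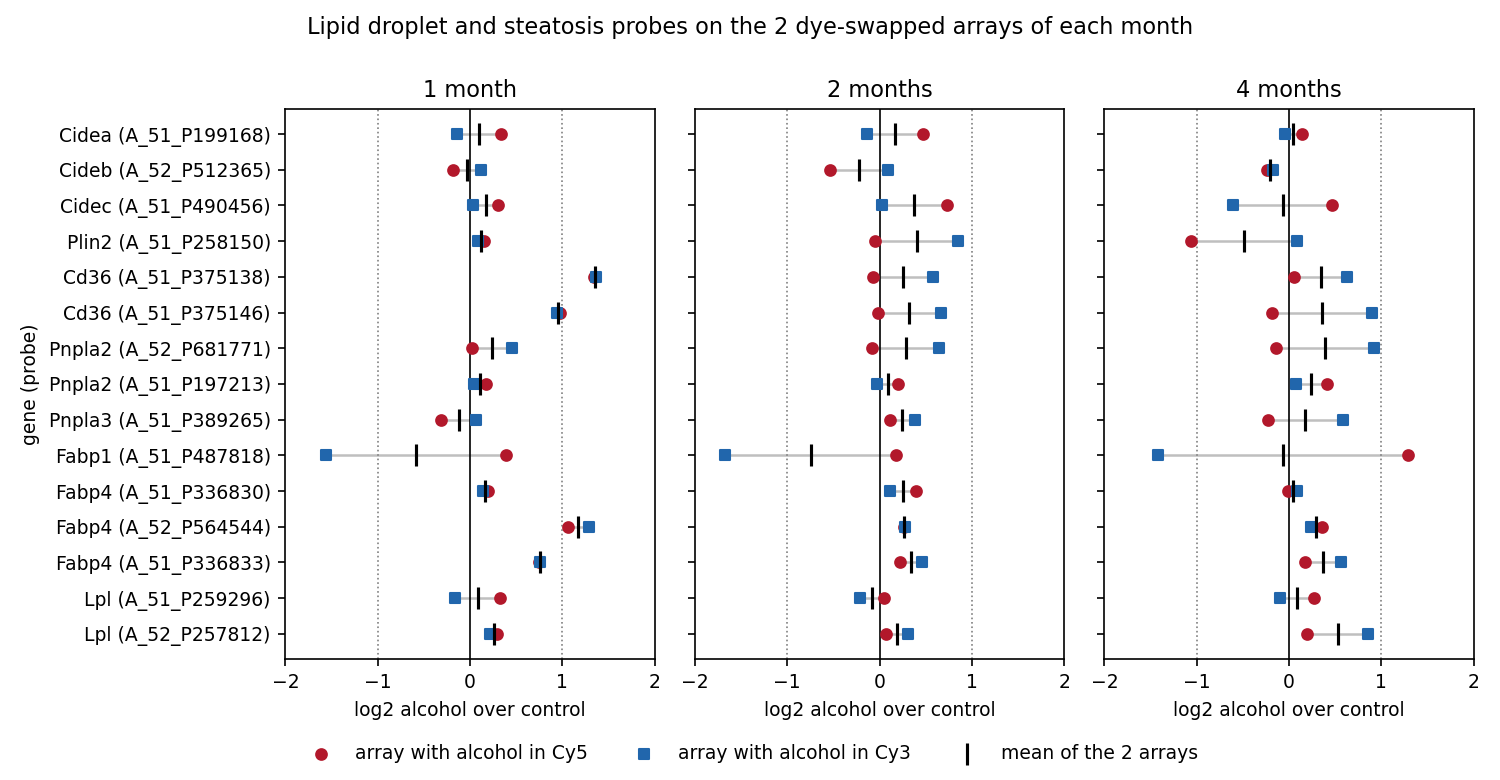
Log2 alcohol over control of the 15 probes on the 6 arrays, 1 panel per month. Circles are arrays with alcohol in Cy5, squares arrays with alcohol in Cy3, black ticks the mean of the pair, and dotted lines mark 2-fold. The Cd36 pair at 1 month lies beyond or near the 2-fold line with both dyes (1.35 and 1.37 for A_51_P375138), while the Fabp1 arrays lie on either side of 0 at all months.

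A probe was called when its mean was at least 2-fold from 1 with an error-model p, derived from the technical error deposited with each log ratio, below 0.05. This call is a filter on measurement error and not a test of alcohol. At 1 month 2 of the 15 probes were called as raised, Cd36 A_51_P375138 and Fabp4 A_52_P564544, against 0.126% of all 41174 probes, and 0 were called as lowered, against 0.0801%. At 2 and 4 months 0 of the 15 were called in either direction, against 0.160% raised and 0.129% lowered at 2 months and 0.340% raised and 0.282% lowered at 4 months. Without the error-model filter the counts were the same. Read from 1 array of a pair alone, Fabp1 would be called as lowered at each month with alcohol in Cy3, and with alcohol in Cy5 at 4 months Fabp1 would be called as raised and Plin2 as lowered. Single arrays call more probes in general: with alcohol in Cy3, 47, 365 and 501 of all 41174 probes were lowered at 1, 2 and 4 months, and with alcohol in Cy5 at 4 months 270 were raised and 278 lowered.

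The 15 probes had a median of 0.16 after 1 month, 0.25 after 2 months and 0.18 after 4 months, beside 0.00, 0.01 and -0.01 over the 27898 probes whose signals cleared background on every array in both channels. With only the brightest probe of each gene, the 10 genes had medians of 0.11, 0.25 and 0.04. At 1 month 12 of the 15 means were above 0, at 2 months 12 and at 4 months 11, beside 13758, 14828 and 13085 of those 27898 probes. The 2 arrays of a month opposed each other in sign for 5 of the 15 probes at 1 month and for 9 at each later time. Over all probes the arrays opposed each other for 48.8%, 61.6% and 66.0% at 1, 2 and 4 months. Above 0 on all 6 arrays were 3 of the 15 probes (Fabp4 A_52_P564544 and A_51_P336833 and Lpl A_52_P257812), against 1.61% of those 27898 probes, and 0 were below 0 on all 6, against 2.68%.

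The 3 months hold different mice and were used as the replicates of a test across months. With limma on the 3 monthly means, 0 of the 15 probes differed from 0 after Benjamini-Hochberg adjustment over 37922 probes (0% of all probes; smallest adjusted p 0.620 among the 15). At an unadjusted p under 0.05 there were 7 of the 15, against 7.98% of all probes, and these were both Cd36 probes, Fabp1, 2 of the Fabp4 probes, 1 Lpl probe and 1 Pnpla2 probe. Without moderation of the variance, 0 of the 15 passed after adjustment and 1 at an unadjusted p under 0.05, against 5.93% of all probes.

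The mean over months was 0.65 ± 0.23 (moderated SE, n = 3 months) for Cd36 A_51_P375138 and 0.54 ± 0.15 for A_51_P375146. The limma adjusted p was 0.620 for both. The moderated SE borrows variance from all probes and is not the SE of the 3 monthly values alone. For A_51_P375138 these values were 1.36, 0.25 and 0.34. The mean over months was 0.58 ± 0.20 for Fabp4 A_52_P564544, 0.49 ± 0.10 for A_51_P336833 and 0.15 ± 0.07 for A_51_P336830. For Plin2 it was 0.01 ± 0.18 (limma adjusted p 0.991). Without the 1-month pair, and thus within 1 slide, no probe of the 15 passed either (smallest limma adjusted p 0.384).

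A slope fitted on log2 month asked whether differences grew or shrank along the treatment. In this limma fit 0 of the 15 probes passed after adjustment (0% of all 37922 probes; smallest adjusted p 0.668), and 1, Fabp4 A_52_P564544, did so at an unadjusted p under 0.05, against 7.42% of all probes. Its slope was -0.44 ± 0.15 (moderated SE) per doubling of time. The slopes of the Cd36 probes were -0.51 ± 0.19 and -0.30 ± 0.12. Without moderation 0 of the 15 passed in either way, against 5.59% of all probes at an unadjusted p under 0.05. Since 1 month lies on a slide of its own, a slope and a difference between slides cannot be told apart.

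The pools of 2 and 4 months share a slide, and their levels were compared for each arm on its own, as a description of 1 pool against 1. In the control pools 0 of the 15 probes were at least 2-fold higher at 4 months, against 0.807% of the 27898 probes, and 2 were at least 2-fold lower (Cidec and Fabp1), against 1.73%. After quantile normalization 0 of the 15 were at least 2-fold lower in the controls, against 1.01%, since Cidec was then at -0.95 and Fabp1 at -0.88. In the alcohol pools 0 were higher, against 1.06%, and 2 were lower (Cidec and Plin2), against 1.95%, and the same 2 were so after quantile normalization, against 1.17%. The summed level of the 8 hepatocyte markers was also lower at 4 months, at 96.7 to 154 against 227 to 278 at 2 months in the control pools and 133 to 147 against 250 to 271 in the alcohol pools, in multiples of the 75th percentile. This is a sum of linear levels, and it was not repeated after quantile normalization. The part of the hepatocyte marker level in the differences of Cidec, Plin2 and Fabp1 was not tested.

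The wider pathway was described by lists of other genes, each represented by its brightest probe. Counted in this way, 1 of the 10 genes described above was called at 1 month (Cd36), since Fabp4 was called by a dimmer probe. Of 13 other droplet coat and assembly genes 0 were called at any month, and their medians were 0.09, 0.11 and 0.08. Plin4, a perilipin of adipocytes and muscle, was above 0 on all 6 arrays, with means of 0.36, 0.50 and 0.35, and G0s2, an inhibitor of Pnpla2, was higher on both arrays of 1 month (0.47 and 0.80), with means of 0.13 and -0.04 later. Of 9 other lipolysis genes 0 were called. Monoglyceride lipase Mgll had means of -0.02, 0.33 and 0.45 and Aadac, a microsomal esterase, -0.13, -0.40 and -0.43. Another Mgll probe, A_51_P139920, had means of -0.05, 0.23 and 0.06, and the third was well above background in only 8 of 12 channels.

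Of 13 triglyceride synthesis genes 1 was called by its brightest probe, in opposite directions. Lpin1, the phosphatidate phosphatase that makes diacylglycerol, was lowered at 1 month (-1.24 and -0.90, mean -1.07) and raised at 2 months (1.07 and 1.88, mean 1.48). At 4 months its arrays gave -0.13 and 1.24. All 4 Lpin1 probes were below 0 at 1 month and above 0 in the mean at 2 and 4 months. Gpat3, an acyltransferase at the head of the pathway, was higher on all 6 arrays, with 0.93 and 0.87 at 1 month and means of 0.21 and 0.50 later. A dimmer probe of Mogat1, a monoacylglycerol acyltransferase, well above background in 8 of 12 channels, was called as raised at 1 month (0.69 and 1.38, mean 1.04), with means of 0.52 and 0.75 later, while the brightest Mogat1 probe had means of 0.15, 0.06 and 0.10. It was named after its values were seen.

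Of 17 other uptake, binding and activation genes 0 were called, and 1 of them, Fabp5, was not well above background in any channel. Vldlr, the receptor for triglyceride-rich lipoproteins, had means of 0.57, -0.13 and 0.72 (its dimmer probe 0.02 at 2 months), and Fabp2, the intestinal binding protein, -0.52, -0.00 and -0.50 (its dimmer probe 0.03 at 2 months). Of 12 regulators 1 was called: Fgf21, the fasting hormone that PPARalpha induces, was raised at 2 months (1.69 and 2.01, mean 1.85), with a mean of -0.17 at 1 month and 0.78 at 4 months. Srebf1, the activator of lipogenic genes, had means of -0.56, -0.75 and -0.00.

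**Figure D4:**
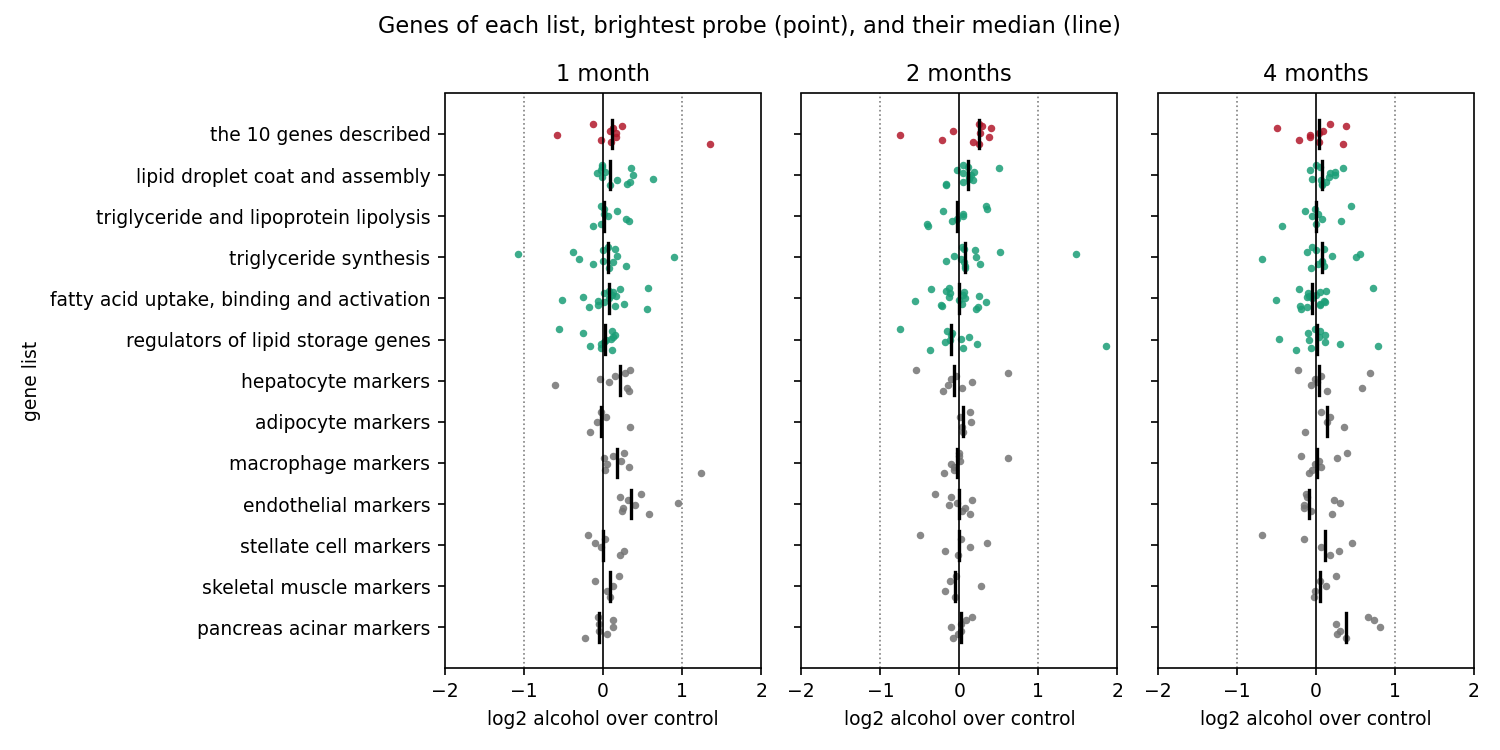
Log2 alcohol over control of every gene of the lists, 1 panel per month. Points are single genes (brightest probe, mean of the dye-swap pair), black lines the median of the list, and dotted lines mark 2-fold. All 8 endothelial markers lie to the right of 0 at 1 month (median 0.36), and Lpin1 crosses from the left of the 2-fold line at 1 month (-1.07) to the right of it at 2 months (1.48).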

How the data were processed

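The authors deposited Agilent Feature Extraction 9.1.1.1 output for 6 arrays. It holds the processed signal intensity of both channels (background-corrected and dye-normalized per the file headers) and, for each spot, log10 of the Cy5 to Cy3 ratio together with its modelled error. The deposited table of log10 ratios of the same arrays, already turned to alcohol over control, was an alternative. Control spots were left out. The log10 ratios deposited by the authors were turned to alcohol over control with the labelled dyes, converted to log2 and averaged over the dye-swap pair. The 3 monthly means entered limma 3.58.1 (R 4.3.3) for 37922 probes, those that cleared background in 1 channel of any array, and p-values were adjusted by Benjamini-Hochberg with a limit of 0.05. The effect leaves 2 and the trend 1 residual degrees of freedom before moderation. Both fits were also run on simulated data with independent noise and no dye or slide part, which does not show how they behave on these data. Tables and figures used matplotlib 3.10.9, pandas 2.3.3 and Python 3.11.15. The number of arrays limits the precision. The genes and lists were chosen with earlier results of these data known. Named were all 15 probes and, per pathway list, the genes called at 2-fold and the 2 with the largest mean absolute log2 ratio. Alternatives were normexp (offset 50) with loess, error-weighted means, single arrays, 1.5-fold, filters on dim probes, centring, no moderation and leaving out a month.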

Additional observations from a re-analysis of the deposited data

How the results depend on the processing

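Cd36 A_51_P375138 and Fabp4 A_52_P564544 were called as raised at 1 month under all 10 alternatives. Most of these could not have removed the calls. The 1.5-fold limit and dropping the error model only loosen the rule, and all 15 probes pass the background filter. Array medians were already 0, and the processed signals and the deposited table hold the same ratios. The alternatives that could were normexp with loess, error-weighted means and single arrays. At 1.5-fold, 4 probes were called at 1 month (both Cd36 probes and 2 of the Fabp4 probes) and 1 at 2 months, Fabp1 as lowered, beside 142 raised and 339 lowered of all 41174 probes at these times. With single arrays, 2 to 3 probes were called at 1 month, 0 to 1 at 2 months and 1 to 2 at 4 months, the additional ones being Fabp1 and Plin2. With normexp and loess Cd36 A_51_P375138 gave 1.29 at 1 month. No probe of the 15 passed limma after adjustment for the effect or the trend in any alternative run, although over all probes the effect called 9 with normexp and loess and 6 among probes above background throughout, and the trend 50 with normexp and loess and 1 without moderation, beside 0 in the report. Over the 10 alternatives, the raised probes of the whole array numbered 40 to 142 at 1 month (52 in the report), 41 to 328 at 2 months (66) and 76 to 1101 at 4 months (140), and the lowered ones 21 to 135 (33), 20 to 365 (53) and 68 to 501 (116). Signs of the effect turned only when an array or a month was left out. The effect then ran from -0.10 to 0.32 for Cidea, -0.32 to 0.012 for Cideb, -0.18 to 0.50 for Cidec, -0.32 to 0.34 for Plin2, -0.069 to 0.67 for Pnpla2 A_52_P681771, -0.14 to 0.34 for Pnpla3, -1.55 to 0.62 for Fabp1 and -0.16 to 0.22 for Lpl A_51_P259296. With single arrays the slope ran from -0.10 to 0.048 for Cidea, -0.32 to 0.080 for Cidec, -0.083 to 0.23 for Pnpla2 A_52_P681771, -0.027 to 0.031 for Lpl A_51_P259296 and -0.048 to 0.32 for Lpl A_52_P257812. With normexp and loess the slope of Cidea turned to 0.0034 and that of Lpl A_51_P259296 to -0.0093, and with error-weighted means the latter was -0.0043. The cause was not tested. Slide as a random block could not be fitted, since limma gave no estimate from 3 values. The months of a trend cannot be left out in turn. The numbers 1 and 2 of the arrays mark only the dye of the alcohol RNA and pair no mice across months, and alcohol and control are already paired by their ratio on each array.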
